A study of Mus musculus with 12 samples.

Results

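Cycling CD8 T cells were taken from the CD4/CD8-selected tumor-infiltrating cells by the transcripts of 4 genes, counted as unique molecular identifiers (UMIs), each of which stands for 1 captured mRNA molecule. A cell was included when it held at least 1 UMI of *Cd8a* (the CD8 coreceptor), 0 of *Cd4*, at least 1 of *Mki67* (the Ki-67 proliferation antigen) and at least 1 of *Top2a* (the topoisomerase that untangles replicated DNA). Of 19528 cells with at least 200 detected genes and under 10% mitochondrial UMIs, 14157 were *Cd8a*+ *Cd4*-, and 1065 of these met the rule. They were compared with 10326 *Cd8a*+ cells that held no UMI of *Mki67* or *Top2a*, of which 194 held a *Cd4* UMI. The levels of the 4 genes chose the cells and are given as a description only.

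The cells came from breast tumors of female MMTV-PyMT mice on a C57BL/6 background, which express the polyoma middle T oncogene from a promoter active in the mammary gland and develop tumors spontaneously. The experiment holds 3 PyMT-PAR2WT and 3 PyMT-PAR2G37I samples of T cells. PAR2G37I mice carry a G37I change in protease activated receptor 2 that makes it resistant to signaling by coagulation factor Xa. The mice received no further treatment, and the labels give no age. Digested tumors were enriched for T cells on CD4 and CD8 beads, and the cells were kept frozen before capture on the 10x Genomics platform. The deposited matrix joins the 6 samples, and its cell barcodes carry no sample name, so all cells count as 1 sample here. The genotypes could not be set against each other, no test was run and no p-value is given. The barcodes run through the alphabet 6 times. The values of these 6 barcode runs are given as a measure of spread, but the runs were not linked to samples and are not replicates of a group. In all, 51 barcodes occurred in more than 1 run, and 3 of the cycling cells carried such a barcode.

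A dividing cell licenses its replication origins in G1 phase, copies its DNA in S phase, and condenses and separates its chromosomes in mitosis. The E2F transcription factors drive the genes of DNA replication, and the MuvB complex, joined by B-MYB and FOXM1, drives those of G2 phase and mitosis through a DNA element known as the cell cycle genes homology region (CHR). In tumors, CD8 T cells divide after they meet antigen, and progenitor exhausted cells, which keep the transcription factor TCF1 (*Tcf7*), are known as a source of new effector and terminally exhausted cells.

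*Mki67* lies on chr7:135689784-135716361 on the minus strand and *Top2a* on chr11:98992943-99024189 on the minus strand (GENCODE M21, GRCm38). The 150 bases before the RefSeq start site of both genes are shown, since these genes define the cells, together with those of the S phase genes *Slbp* and *Nasp* and of the G2M genes *Hmgb2* and *Tubb4b*, whose levels in cycling cells were the highest of their lists among the genes with a promoter at hand. The sequences are those of RefSeq for GRCm38.p6, written in the direction of transcription. Capitals mark matches on either strand to CHR letters (TTTGAA or TTTAAA) and to the CCAAT box (CCAAT), and the positions are chr7:135716380-135716529 for *Mki67*, chr11:99024190-99024339 for *Top2a*, chr8:57511693-57511842 for *Hmgb2*, chr2:25224703-25224852 for *Tubb4b*, chr5:33652575-33652724 for *Slbp* and chr4:116627952-116628101 for *Nasp*. *Hmgb2* is on the plus strand and the others are on the minus strand.
Mki67: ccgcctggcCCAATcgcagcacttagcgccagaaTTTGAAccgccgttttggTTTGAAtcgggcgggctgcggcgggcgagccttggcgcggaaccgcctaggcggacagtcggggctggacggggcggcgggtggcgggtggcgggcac
Top2a: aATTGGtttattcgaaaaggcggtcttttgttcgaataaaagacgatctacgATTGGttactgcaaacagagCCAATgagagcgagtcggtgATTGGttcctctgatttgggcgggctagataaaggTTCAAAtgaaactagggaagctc
Hmgb2: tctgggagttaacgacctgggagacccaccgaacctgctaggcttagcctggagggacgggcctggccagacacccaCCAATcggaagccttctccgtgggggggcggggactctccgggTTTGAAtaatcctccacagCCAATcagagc
Tubb4b: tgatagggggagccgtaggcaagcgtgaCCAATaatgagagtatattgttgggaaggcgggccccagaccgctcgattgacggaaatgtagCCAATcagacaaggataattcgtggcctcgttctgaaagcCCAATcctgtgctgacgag
Slbp: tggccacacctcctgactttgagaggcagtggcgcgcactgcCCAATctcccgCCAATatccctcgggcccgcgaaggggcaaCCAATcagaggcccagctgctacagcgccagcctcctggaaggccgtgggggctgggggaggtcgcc
Nasp: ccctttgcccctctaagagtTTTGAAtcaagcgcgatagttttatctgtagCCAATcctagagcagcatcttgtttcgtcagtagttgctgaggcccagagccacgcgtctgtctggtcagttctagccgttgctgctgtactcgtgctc
*Mki67* held 2 CHR matches, 116 and 98 bases before the start, and *Top2a* held 1 on the opposite strand, 23 bases before it. Each of the 6 sequences held at least 1 CCAAT box, and none held the E2F letters searched (TTTCGCGC, TTTGGCGC, TTTCCCGC or TTTGCCGC, both strands) within 250 bases. The whole window of *Slbp* lies outside the annotated *Slbp* gene and within annotated exon sequence.

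Over the 250 bases before the start, E2F letters occurred in 2.16% of 27025 genes, CHR letters in 28.1% and a CCAAT box in 37.5%. Among the 4730 of these genes detected in at least 5% of the cycling or comparison cells, the shares were 4.86%, 20.4% and 40.3%. The cell cycle lists used below, 42 S phase and 49 G2M genes widely used to score single cells, differed from each other in these letters. Of the 30 S phase genes in the promoter table, 9 (30.0%) held E2F letters, among them *Cdc6*, *Mcm5*, *Hells* and *Uhrf1*, and 7 (23.3%) held CHR letters. Of the 43 G2M genes, 3 (6.98%) held E2F letters and 23 (53.5%) held CHR letters. A CCAAT box was present in 70.0% of the S phase genes and in 74.4% of the G2M genes. A match describes the letters and is not a binding site.

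Cycling cells held more UMIs than the comparison cells. Their median was 10869 UMIs and 2991 genes per cell, against 4596 UMIs and 1627 genes. The rule asks for UMIs of *Cd8a*, *Mki67* and *Top2a* in cycling cells and for none of *Mki67* and *Top2a* in comparison cells. It thus favored deep cells among the former and shallow cells among the latter, and its part in this difference was not tested. Each cell was therefore thinned at random to 3000 UMIs, which left 1057 cycling and 8882 comparison cells and brought the medians to 1328 and 1222 genes. Shallower cells, 8 and 1444, were left out. The share of mitochondrial UMIs was similar in both, with medians of 4.41% and 4.15%. Over all 19528 cells the matrix held 128084234 UMIs, and barcode runs held 13272316 to 29805886. Levels are UMIs summed over cells per 1000000 summed UMIs (CPM) after thinning, with exact 95% Poisson intervals (CI), and shares have exact Clopper-Pearson intervals. Both cover counting error only and not the spread between animals.

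Of the *Cd8a*+ *Cd4*- cells, 7.52% (95% CI 7.09 to 7.97) were cycling by the deposited counts. Among barcode runs the share was lowest in run 1 (4.43%), with a median of 7.05%, and highest in run 2 (13.1%). When the rule was applied to cells thinned to 3000 UMIs, so that every cell had the same chance to show the genes, 519 of 10756 cells (4.83%, 95% CI 4.43 to 5.25) met it. Run 4 was then lowest (2.06%, 24 of 1165 cells) and run 2 remained highest (6.71%, 111 of 1655 cells), and the intervals of these runs did not overlap. The share thus depends on depth, whereas the spread among runs was larger than counting error at either depth.

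**Figure D1:**
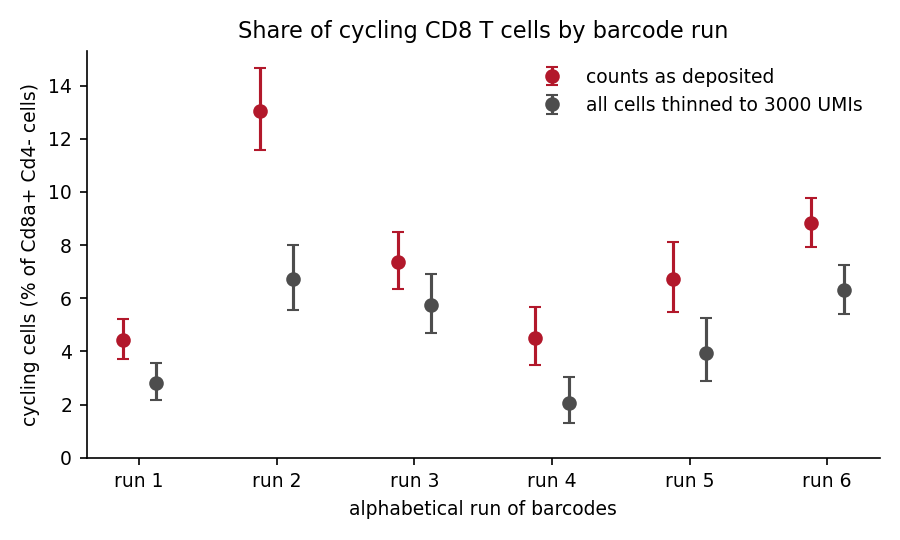
Share of cycling cells (percent of *Cd8a*+ *Cd4*- cells, y axis) in each of the 6 alphabetical barcode runs (x axis), with the deposited counts (red) and with all cells thinned to 3000 UMIs (gray). Bars are exact 95% intervals. Run 2 was highest on both scales, at 13.1% and 6.71%.

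Cycling cells varied widely in the genes that chose them. *Mki67* had a median of 4 UMIs per cell, with a highest value of 46 and 235 cells at 1 UMI. *Top2a* had a median of 7 UMIs, a highest value of 53 and 173 cells at 1 UMI. *Cd8a* (chr6:71373427-71379173, plus strand) had a median of 6 UMIs, and 58 cells were included on 1 UMI. A further 31 cells with *Cd8a*, *Mki67* and *Top2a* were left out because they held a *Cd4* UMI.

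At the edge of the rule, the summed level of the G2M list separated cells poorly. It was 1761 CPM in the 10132 *Cd8a*+ *Cd4*- cells without either gene and 1865 CPM in the 1795 cells just outside, with 1 *Top2a* UMI and no *Mki67*. In the 459 cells with 1 *Mki67* UMI and no *Top2a* it was 2075 CPM, and in the 117 cells just inside, with 1 UMI of each, 2919 CPM. In the 547 cells with 4 or more UMIs of each it reached 12386 CPM. The few cells with 4 or more UMIs of only 1 of the genes lay between. Among these, 17 cells with *Mki67* alone stood at 7431 CPM and 68 cells with *Top2a* alone at 3378 CPM.

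**Figure D2:**
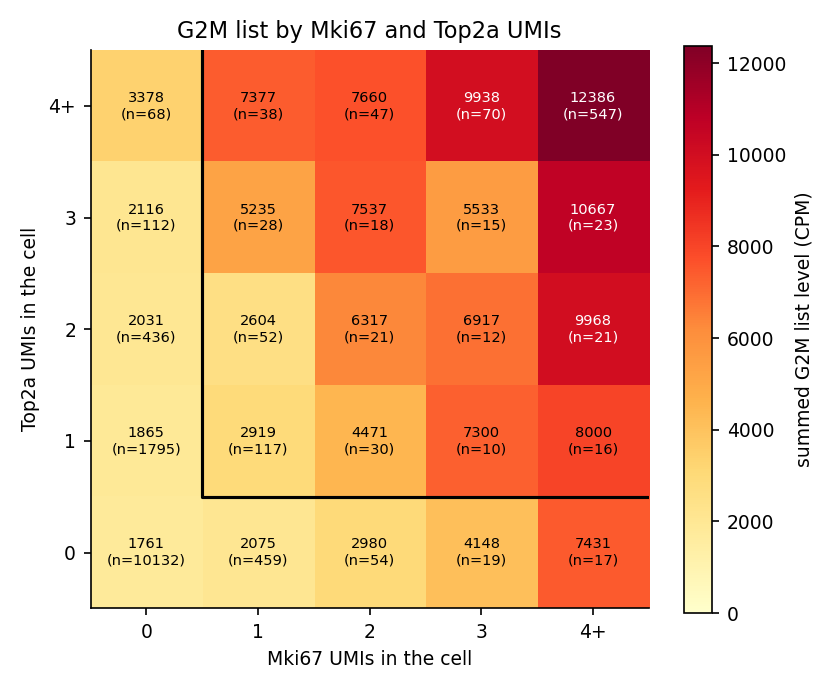
Summed level of the G2M list (CPM after thinning, color and upper number) in *Cd8a*+ *Cd4*- cells by their UMIs of *Mki67* (x axis) and *Top2a* (y axis), where 4+ is 4 or more and n is the number of cells. Cells above and to the right of the black line met the rule. The level was 2919 CPM at 1 UMI of each and 12386 CPM at 4 or more of each.

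The label of CD8 T cells was checked against markers that the rule did not use. The level of *Cd8b1*, the other CD8 chain, was 761 CPM in cycling and 768 CPM in comparison cells, with runs of 480 to 1100 CPM and 615 to 1168 CPM that overlapped throughout. *Trac*, the constant region of the T cell receptor alpha chain, was at 775 and 630 CPM. The summed T cell identity list of 15 genes stood at 0.969 of the comparison level, and 0 of its genes differed by more than 2-fold in either direction. The shares past 2-fold over all tested genes, described below, were 8.45% higher and 0.253% lower. Of the other cell types, the macrophage list was lower in cycling cells, at 336 against 795 CPM. The B cell list was at 107 and 97.2 CPM, the NK cell list at 235 and 273 CPM and the gamma delta T cell list at 276 and 264 CPM. The tumor epithelium list was at 167 and 205 CPM. A CD4 and regulatory T cell list was at 326 and 252 CPM, which is 1.30-fold and higher in cycling cells in 5 of 6 runs. It includes *Ikzf2*, described below. *Foxp3*, which defines regulatory T cells, was at 0 UMIs in cycling cells, which the rule required to lack *Cd4*. Fibroblast genes were at 88.0 and 18.6 CPM, but only 0.757% of cycling cells held any such UMI, and the level was higher in only 2 of 6 runs.

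Cells that carry the RNA of another cell type occurred in both groups. At least 3 UMIs over the macrophage, epithelium, fibroblast and B cell lists were found in 172 cycling cells (16.3%) and in 2269 comparison cells (25.5%). As a background for free RNA, 818 cells with at least 50 macrophage UMIs and no CD3 UMI were used, which were deeper than *Cd8a*+ *Cd4*- cells (medians 19748 and 5046.5 UMIs). Of these macrophage-marker cells 1.71% held a *Cd8a* UMI, 5.26% an *Mki67* UMI and 5.87% a *Top2a* UMI after thinning to the same 3000 UMIs. None of them, 0 cells, held all 3, which allows a share of up to 0.367%. With single shares this low, that result was likely in advance and does not measure how often free RNA made a cell meet the rule. The *Mki67* and *Top2a* UMIs may also be these cells' own, which was not tested. In *Cd8a*+ *Cd4*- cells the shares were 8.13% for *Mki67* and 18.0% for *Top2a*. Cells above 17011 UMIs, the 95th percentile of all cells, made up 17.6% of cycling and 0.843% of comparison cells. Doublets were not removed, and their part in these values was not tested.

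Across the transcriptome, more genes were past 2-fold at higher than at lower levels in cycling cells. Of 5919 genes detected in at least 5% of the thinned cells of either group, 500 (8.45%) were more than 2-fold higher in cycling cells and 15 (0.253%) more than 2-fold lower. The lower count depended on the processing and was 86 against comparison cells of at least 7816 UMIs, 54 without thinning and 8 without the deepest 5% of cells. The direction held in all 6 runs for 469 of the higher and 12 of the lower genes. The median over all tested genes was a log2 difference of 0.13, and it was 0.00 when ribosomal protein genes were left out of the totals, so small differences depend on the scaling. Since the cells were chosen by 2 cell cycle genes, genes that go with these were bound to be higher. A gene that passed the detection filter only through the cycling cells had to differ, and the counts below describe the lists and do not test them.

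**Figure D3:**
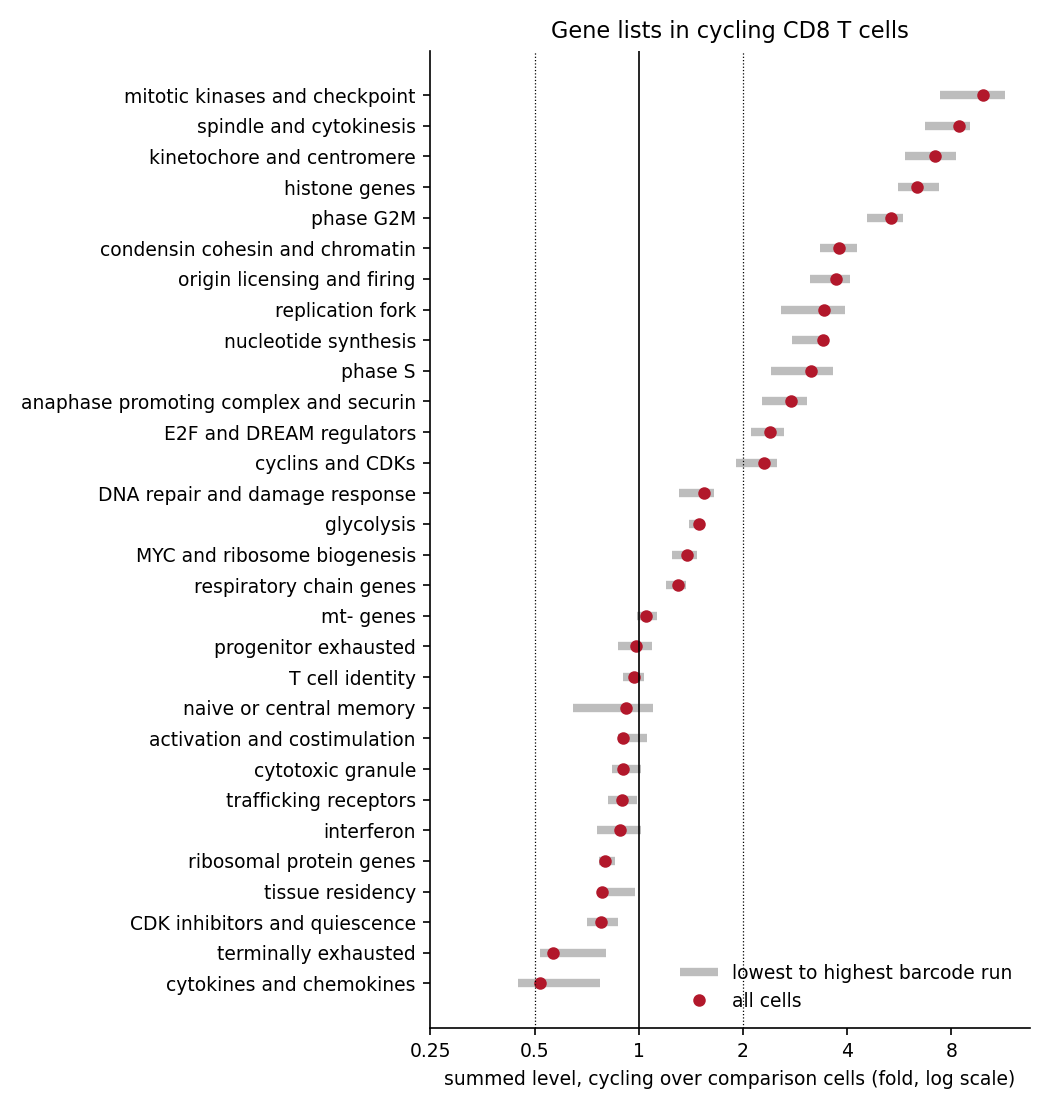
Summed level of each gene list in cycling over comparison cells (fold, log2 axis). Points are all cells, gray bars run from the lowest to the highest of the 6 barcode runs, and dotted lines mark 2-fold. The mitotic kinase, spindle and kinetochore lists reached 7.17 to 9.86, replication lists 3.40 to 3.72, and T cell lists lay between 0.517 and 0.982.

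Genes of DNA replication were higher in cycling cells. The S phase list stood at 4667 against 1488 CPM, a 3.14-fold difference (2.41 to 3.65 among runs), with 36 of 41 tested genes above 2-fold. Among the origin licensing and firing genes (1620 against 436 CPM, 3.72-fold), 16 of 18 were above 2-fold. *Cdc6*, which loads the MCM helicase onto origins, was at 45.4 CPM in cycling and 0.563 CPM in comparison cells, with runs of 37.8 to 50.1 against 0 to 0.758 CPM. *Cdc45*, a part of the active helicase, was at 41.9 and 2.06 CPM. The groups did not overlap among runs for either gene. *Cdt1*, the other MCM loader, was not above 2-fold (59.3 and 35.6 CPM, log2 0.77). *Dbf4*, the activating subunit of the CDC7 kinase, was at 108 and 95.8 CPM, with overlapping runs.

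At the replication fork, 30 of 31 tested genes were above 2-fold, and the list stood at 2833 against 828 CPM. *Asf1b*, a histone chaperone, had 123 CPM in cycling cells (96.0 to 149 among runs) and 5.48 CPM in comparison cells (3.95 to 7.59 among runs). *Clspn*, which couples the fork to checkpoint signaling, was at 127 and 6.83 CPM, and *Uhrf1*, which maintains DNA methylation behind the fork, at 85.2 and 5.03 CPM. The only tested gene under 2-fold was *Rpa2*, a subunit of the single-strand DNA binding complex, at 190 and 154 CPM. *Slbp*, which binds histone mRNA, was just above 2-fold at 430 and 214 CPM.

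The enzymes that supply deoxynucleotides followed the same pattern, with 13 of 19 tested genes above 2-fold. The regulated ribonucleotide reductase subunit *Rrm2* was at 236 against 8.59 CPM (runs 106 to 312 against 5.05 to 10.9 CPM). Thymidine kinase (*Tk1*) was at 88.3 and 3.19 CPM and thymidylate synthase (*Tyms*) at 211 and 17.2 CPM. In all of these the lowest run of cycling cells lay above the highest run of comparison cells. The guanine nucleotide enzyme *Impdh2* was at 169 and 121 CPM, under 2-fold.

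Among the regulators of these programs, 9 of 14 tested E2F and DREAM genes were above 2-fold. The activators *E2f1* (46.0 against 5.63 CPM) and *E2f2* (46.7 against 2.10 CPM) and the repressors *E2f7* (29.0 against 1.80 CPM) and *E2f8* (22.1 against 0.638 CPM) were higher in every run. So were *Mybl2*, which encodes B-MYB (20.8 and 0.450 CPM), and *Foxm1* (43.5 and 1.65 CPM). *Rbl2*, which encodes the pocket protein p130 of resting cells, was at 48.6 and 50.4 CPM, and *Myc* at 8.83 and 9.68 CPM.

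Cyclins differed by the phase in which they act. *Ccna2*, the cyclin of S and G2 phase, lies on chr3:36564865-36572150 (minus strand) and had the largest log2 difference, 7.58, of all genes that were seen in 25% or more of either group, other than those of the rule. It was at 163 CPM (95% CI 150 to 178) in cycling and 0.676 CPM (95% CI 0.400 to 1.07) in comparison cells. Its runs were 111, 162 and 237 CPM (lowest, median and highest) in cycling cells and 0.323, 0.561 and 1.05 CPM in comparison cells. The mitotic cyclin *Ccnb2* was at 156 and 2.66 CPM and its kinase *Cdk1* at 186 and 9.61 CPM. The cyclins of S phase entry *Ccne1* (44.5 and 14.4 CPM) and *Ccne2* (25.9 and 6.91 CPM) differed less.

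*Ccnd2*, a D-type cyclin that starts the passage through G1 phase, was the lowest by fold in the list and was lower in cycling cells in 6 of 6 runs. It was at 170, 214 and 258 CPM (lowest, median and highest run) in cycling cells and at 296, 359 and 413 CPM in comparison cells, so that the groups did not overlap. The log2 difference was -0.78, which is under 2-fold. Another D-type cyclin, *Ccnd3*, was at 159 and 122 CPM, with overlapping runs, and *Cdk6*, the partner of these cyclins, at 146 and 161 CPM. *Ccnd1*, also a D-type cyclin, ranked between *Cdk6* and *Ccnd2* by fold.

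Genes of mitosis were higher in cycling cells. The mitotic kinase and checkpoint list stood at 1383 against 140 CPM (9.86-fold, 7.43 to 11.5 among runs), the spindle and cytokinesis list at 7127 against 849 CPM (8.40-fold) and the kinetochore list at 1483 against 207 CPM (7.17-fold). All 26 tested spindle genes and all 16 tested kinetochore genes were above 2-fold, as were 14 of 15 mitotic kinases. *Birc5* (chr11:117849251-117855743, plus strand), which encodes survivin of the chromosomal passenger complex, was at 382 CPM (95% CI 361 to 404) against 3.04 CPM (95% CI 2.41 to 3.78) and was detected in 57.0% of cycling and 0.766% of comparison cells. *Stmn1*, which destabilizes microtubules, was at 1543 and 67.1 CPM. Its lowest run of cycling cells, 1187 CPM, lay far above the highest run of comparison cells, 102 CPM.

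Members of the same complexes did not differ to the same extent. The kinetochore genes *Spc24* (187 and 3.04 CPM) and *Cenpf* (130 and 1.80 CPM) had log2 differences of 5.87 and 6.05. The centromeric histone *Cenpa* was already at 116 CPM in comparison cells and at 318 CPM in cycling cells, a log2 difference of 1.45. The anaphase promoting complex and securin list stood at only 2.76-fold, with 8 of 10 tested genes above 2-fold. *Ube2c*, the ubiquitin-conjugating enzyme of the anaphase promoting complex, was at 383 and 9.49 CPM. *Pttg1*, or securin, which holds back the protease that opens cohesin, was at 68.1 and 96.2 CPM and was lower in cycling cells in 6 of 6 runs, although the ranges overlapped (56.7 to 85.2 against 64.9 to 134 CPM). Its direction changed with the depth of the comparison cells, as described below.

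Chromatin genes were higher in bulk. Of 23 tested condensin, cohesin and chromatin genes, 22 were above 2-fold, led by condensin subunits such as *Ncapg* (66.5 and 2.40 CPM) and *Smc2* (256 and 17.2 CPM). The cohesin subunit *Smc3* was at 211 and 134 CPM, the only tested gene of the list under 2-fold. The histone list was at 1254 against 197 CPM, and 12 of 13 tested genes were above 2-fold. *Hist1h1b*, a linker histone gene, was at 354 CPM (232 to 458 among runs) against 6.68 CPM (2.88 to 9.85). Histone values are uncertain, because many copies are near-identical and most of their mRNAs lack the poly(A) tail on which capture rests. Of the DNA repair genes 9 of 16 were above 2-fold, whereas the p53 target *Bbc3* was at 24.6 and 28.6 CPM.

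Single cells differed in the balance of S and G2M transcripts. Of 3000 UMIs, cycling cells held a median of 13 UMIs of the S list (quartiles 7 and 20) and 27 of the G2M list (quartiles 13 and 40), with highest values of 40 and 101. Comparison cells held medians of 4 and 5, and 99% held at most 13 and 14. The S list exceeded the G2M list in 242 cycling cells (22.9%, 17.5% to 25.3% among runs), was lower in 782 and equal in 33, and the lists were within 2 UMIs of each other in 182. The lists had little correlation among cycling cells (r = 0.135 over 1057 cells, which share the rule and the depth). *Top2a* and *Mki67*, which chose the cells, are known to peak in G2 phase.

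**Figure D4:**
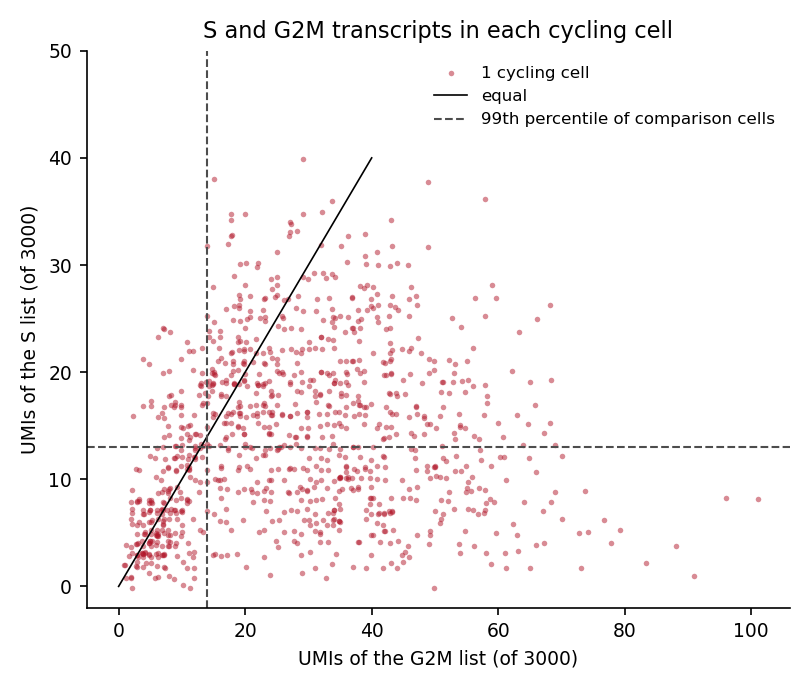
UMIs of the G2M list (x axis) and of the S list (y axis) among 3000 UMIs in each of 1057 cycling cells (points, shifted by up to 0.3 UMIs for visibility). The solid line marks equal numbers and dashed lines the 99th percentiles of comparison cells, 14 and 13 UMIs. Cells spread along both axes, and 281 had no more than 14 G2M UMIs.

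Some cycling cells had few cell cycle transcripts beyond the genes of the rule. In 84 cells both lists were at or under the upper quartile of comparison cells (6 S and 7 G2M UMIs), and 281 had no more than 14 G2M UMIs. Conversely, only 6 of 8882 comparison cells held as many as 27 G2M UMIs, whereas 95 (1.07%) held 13 or more S UMIs. The value of 13 S UMIs is also the 99th percentile of comparison cells, and 97.2% of these cells held some UMI of the S list. Whether the 95 cells were in S phase was not tested.

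Cycling cells with more S than G2M transcripts were set against those with more G2M transcripts for the 301 genes outside both lists with enough UMIs. Intervals did not overlap for 75 genes, of which 22 were higher in S-rich and 53 in G2M-rich cells. Since the lists chose these groups, the values are a description. Higher in G2M-rich cells in 6 of 6 runs were the mitotic cyclin *Ccnb1* (41.3 against 11.0 CPM), the CDK1 phosphatase *Cdkn3* (64.4 against 12.4 CPM), the mitotic kinase *Melk* (42.6 against 9.64 CPM) and the tubulin *Tubb5* (2578 against 1084 CPM). Histone transcripts were also higher there, at 1484 against 623 CPM, and so was *H2afx*, at 457 against 145 CPM. Higher in S-rich cells in 6 of 6 runs were *E2f1* (78.5 against 37.5 CPM), the DNA ligase *Lig1* (242 against 145 CPM) and the nucleolar methyltransferase *Fbl* (193 against 113 CPM). *Ccl5* was at 5295 CPM in S-rich and 3566 CPM in G2M-rich cells, and *Ccnd2* at 266 and 185 CPM. In comparison cells these genes were at 8856 and 364 CPM. Both groups take in cells with few UMIs of either list, so S-rich does not mean S phase. The part of such cells in these values was not tested.

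Inhibitors of the cyclin-dependent kinases did not move as a group. The list of CDK inhibitors and quiescence genes stood at 0.776 of the comparison level. Above 2-fold were 2 of 17 tested genes, against 8.45% of all tested genes. Both were INK4 inhibitors of CDK4 and CDK6. *Cdkn2a* was at 26.8 against 5.74 CPM, with runs of 15.2, 27.0 and 44.7 CPM (lowest, median and highest) against 3.66, 5.03 and 11.3 CPM. *Cdkn2c* was at 76.6 against 35.1 CPM, with runs of 60.8 to 113 against 24.5 to 49.97 CPM. The groups did not overlap for either gene. Another INK4 gene, *Cdkn2d*, was at 125 and 65.5 CPM, just under 2-fold and higher in 6 of 6 runs. The matrix sums all transcripts of *Cdkn2a*, so INK4A and ARF cannot be told apart.

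In contrast, *Cdkn1b* (p27), which holds resting cells out of the cycle, was at 113 CPM in cycling and 164 CPM in comparison cells. The antiproliferative gene *Btg1* was at 1167 and 1747 CPM, with runs of 964 to 1374 against 1484 to 2121 CPM, and *Txnip*, which limits glucose uptake, at 143 and 250 CPM. All 3 were lower in cycling cells in 6 of 6 runs and differed by less than 2-fold. *Cdkn1a* (p21) was at 86.1 and 51.5 CPM and higher in 5 of 6 runs.

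Because cycling cells were deep before thinning, they were also set against the 1435 comparison cells with at least 7816 UMIs, the lower quartile of the cycling cells. These had a median of 9752 UMIs. They also carried more macrophage RNA, 2888 CPM against 336 CPM in cycling cells, and 24.9% of them held at least 3 UMIs of other cell types. Leaving out cells with such UMIs from both groups left 1078 and 885 cells, with macrophage levels of 125 and 103 CPM. This choice was made after the data had been seen.

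Against deep comparison cells the cell cycle lists kept their difference. The S phase list stood at 3.42-fold, the G2M list at 5.80-fold and the spindle list at 8.43-fold. Among the regulators named here, *Cdkn2a* (log2 2.23 against 2.26 with all comparison cells), *Cdkn2c* (1.55 against 1.15), *Tcp11l2* (-1.95 against -2.004) and *Kdm5b* (-1.70 against -1.67) stayed past 2-fold. *Hopx* (-0.94 against -1.22) and *Kdm7a* (-0.76 against -1.04) kept their direction but were no longer past 2-fold. *Ccnd2* was at -0.48, *Btg1* at -0.29 and *Cdkn1b* at -0.28 in place of -0.78, -0.58 and -0.52. *Pttg1* changed from -0.47 to 0.21.

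**Figure D5:**
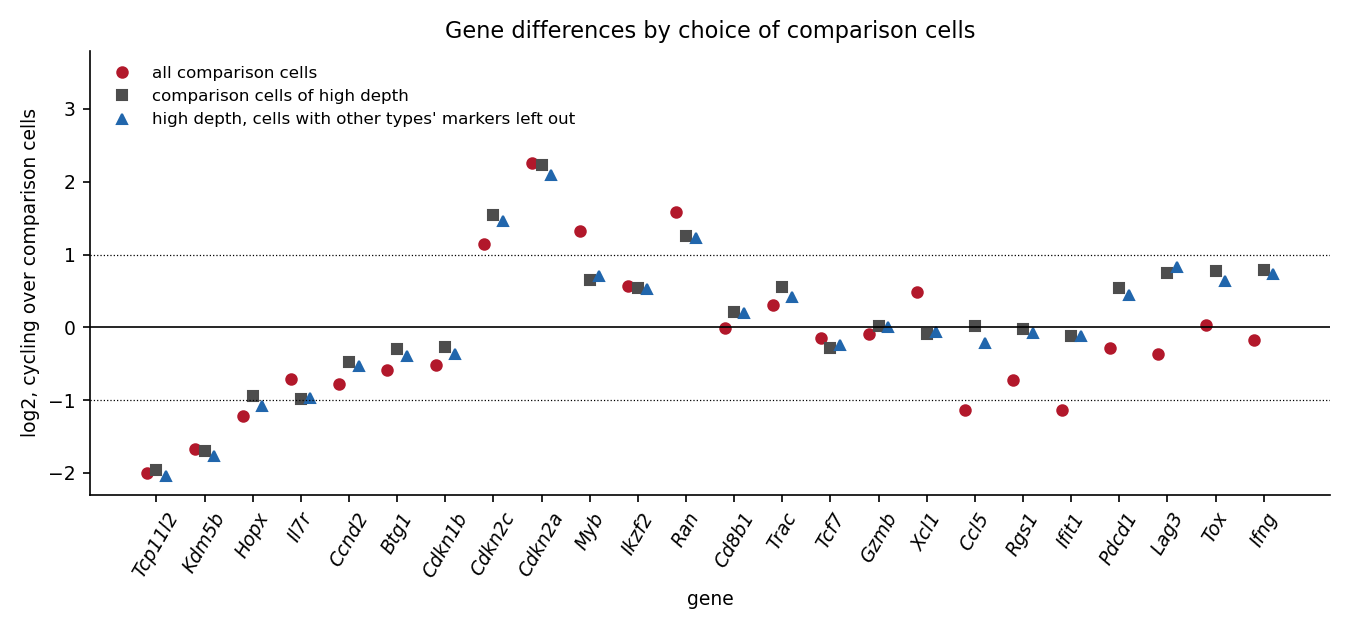
Log2 difference between cycling and comparison cells (y axis) for genes named in the text (x axis), against all comparison cells (red circles), against comparison cells of at least 7816 UMIs (gray squares) and against these with cells carrying other cell types' markers left out of both groups (blue triangles). Dotted lines mark 2-fold. *Tcp11l2*, *Kdm5b*, *Hopx* and *Il7r* stayed below 0 and *Cdkn2a* and *Cdkn2c* above 1, whereas *Ccl5*, *Rgs1* and *Ifit1* came to between -0.22 and 0.02 and *Pdcd1*, *Lag3* and *Ifng* changed sign.

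The genes at lower levels in cycling cells included several regulators. *Hopx*, a small homeodomain protein found in memory and effector T cells, was at 80.4, 107 and 157 CPM (lowest, median and highest run) in cycling cells and at 228, 240 and 284 CPM in comparison cells. *Tcp11l2* was at 9.47, 17.6 and 36.5 CPM against 63.6, 75.7 and 104 CPM. The histone demethylase *Kdm5b* was at 10.4 and 38.0 CPM, and the demethylase *Kdm7a* at 70.3 and 147 CPM. The run ranges of *Hopx*, *Tcp11l2* and *Kdm7a* did not overlap between the groups. The remaining genes among the 15 that were more than 2-fold lower included *Apoe*, *Lyz2* and *Ctss* of the macrophage list. With cells that carried other cell types' markers left out, *Ctss* was at a log2 difference of -0.85 against deep comparison cells.

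Levels also differed with the UMIs of *Mki67* and *Top2a*, both for genes that stayed lower against deep comparison cells and for genes that did not. *Hopx* was at 244 CPM in *Cd8a*+ *Cd4*- cells with neither, 203 CPM with 1 UMI of each, and 76.2 CPM with 4 or more of each. *Tcp11l2* was at 83.7, 43.5 and 13.4 CPM in the same cells. *Ccl5*, described next, was at 8917, 8365 and 2444 CPM and *Rgs1* at 1039, 907 and 514 CPM. *Ran*, the GTPase of nuclear transport and spindle assembly, went the other way, at 291, 336 and 1030 CPM, and *Cd8b1* stood at 770.2, 858 and 759.9 CPM. Median depth before thinning differed among these cells too, at 4579, 6560 and 12485 UMIs, and its part in the levels was not tested.

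*Ccl5*, a chemokine made by effector CD8 T cells (chr11:83525778-83530518, minus strand), was more than 2-fold lower in cycling cells, but the difference rested on the choice of comparison cells. It was at 4035 CPM (95% CI 3965 to 4105) in cycling cells and 8856 CPM (95% CI 8821 to 8892) in all comparison cells. The runs were 3393, 3698 and 7525 CPM (lowest, median and highest) against 6175, 8594 and 11669 CPM, lower in cycling cells in 6 of 6 runs. In the deep comparison cells the level was 3988 CPM, and the log2 difference went from -1.13 to 0.02. With cells that carried other cell types' markers left out it was -0.22. *Ccl5* was found in 13.8% of the macrophage-marker cells and in 91.9% of *Cd8a*+ *Cd4*- cells.

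Genes of T cell activation and exhaustion were mostly within 2-fold of the comparison cells. None of the 15 tested activation genes, 12 cytotoxic granule genes and 11 tissue residency genes differed by more than 2-fold in either direction. Over all tested genes 8.45% were higher and 0.253% lower past 2-fold, so lists of this size would hold few such genes in any case. Among the exhaustion genes, the inhibitory receptor *Pdcd1* (PD-1) was at 228 and 280.0 CPM, with overlapping runs and a log2 difference of -0.29 that became 0.54 against deep comparison cells. *Lag3* (-0.37 and 0.75), *Tox* (0.03 and 0.77) and the cytokine *Ifng* (-0.18 and 0.79) shifted the same way. The terminally exhausted list went from 0.565 to 1.10 of the comparison level, and the list of cytokines and chemokines from 0.517 to 1.02. *Ccl5* belongs to both lists and dominates them. It made up 4035 of 6652 CPM of the terminally exhausted list in cycling cells and 8856 of 11779 CPM in all comparison cells. *Ifit1*, an interferon-induced gene, was at 43.8 and 99.8 CPM, with log2 differences of -1.14 and -0.12, and the G protein regulator *Rgs1* was at 631 and 1045 CPM, with -0.72 and -0.02. *Gzmb* (granzyme B) was at 340 and 363 CPM and gave -0.09 and 0.02.

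Genes of progenitor and memory cells were mixed. *Il7r*, the receptor for the survival cytokine IL-7, was at 56.4 CPM in cycling cells (13.7, 52.8 and 79.3 CPM for the lowest, median and highest run) and at 94.7 CPM in comparison cells (49.9, 84.5 and 134 CPM). It was lower in 5 of 6 runs, with overlapping ranges, and the log2 difference was -0.71 against all and -0.99 against deep comparison cells. *Tcf7* was at 83.6 and 93.7 CPM (-0.14 and -0.28). *Myb*, a transcription factor of progenitor exhausted cells, was the only gene of that list above 2-fold, at 51.1 and 20.8 CPM with runs that did not overlap (34.1 to 89.3 against 8.90 to 31.1 CPM), but it was under 2-fold against deep cells (log2 0.65). *Dapl1* was at 52.3 and 20.6 CPM and also under 2-fold against deep cells (0.85). *Ikzf2* (Helios) was at 250 and 169 CPM, with a log2 difference of 0.57 against all and 0.54 against deep comparison cells.

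The study asks about progenitor exhausted CD8 T cells, so the share of cycling cells was also taken within cells that did or did not hold a UMI of a given gene, with all counts thinned to 3000 UMIs. Of 32 genes chosen after the matrix had been opened, 7 had intervals that did not overlap between cells with and without the gene. Only *Il7r* also had them, in the same direction, among cells of at least 7816 UMIs. Cells with an *Il7r* UMI were cycling in 3.21% and cells without in 5.12%, lower in 6 of 6 runs, and in deep cells the shares were 10.2% (95% CI 7.38 to 13.7) and 18.2% (95% CI 16.4 to 20.02). Cells with *Ccl5* were cycling in 4.35% and cells without in 10.2%, but cells without it were deeper (median 8352.5 against 4908 UMIs), and in deep cells the shares were 16.6% and 17.3%. *Pdcd1*+ *Tcf7*+ *Havcr2*- cells, which have the markers of progenitor exhausted cells, were cycling in 15 of 632 cases (2.37%, 95% CI 1.33 to 3.88), and *Pdcd1*+ *Tcf7*- *Havcr2*- cells in 169 of 3799 (4.45%, 95% CI 3.82 to 5.15). These intervals overlapped slightly. In deep cells the shares were 11 of 123 (8.94%, 95% CI 4.55 to 15.4) and 108 of 531 (20.3%, 95% CI 17.0 to 24.0), which did not overlap. The order was not the same throughout, since at equal depth run 5 had 6.45% and 3.83%. Among cells without a *Pdcd1* or *Havcr2* UMI, those with and without *Tcf7* were cycling in 4.76% and 5.45% at equal depth and in 15.01% and 16.6% of deep cells, with overlapping intervals. *Pdcd1*+ *Tcf7*- *Havcr2*+ cells were too few to place, with 11 of 216 cycling (5.09%, 95% CI 2.57 to 8.93). A missing UMI does not show that a cell lacks the transcript.

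Genes of growth differed less than those of division. Over all tested genes, 8.45% were above 2-fold. The MYC and ribosome biogenesis list was at 1.38-fold and the glycolysis list at 1.49-fold, with 2 of 13 and 1 of 12 tested genes above 2-fold. These were *Ran* (868 and 290 CPM), its binding protein *Ranbp1* (357 and 131 CPM) and the glycolytic enzyme *Tpi1* (166 and 69.4 CPM), each with runs that did not overlap. *Tpi1* was under 2-fold against deep comparison cells (log2 0.71). *Gapdh* was at 1594 and 970 CPM. Ribosomal protein genes were lower as a sum, at 0.799 of the comparison level (0.765 to 0.852 among runs) and 0.779 against deep cells, and 0 of 87 differed by more than 2-fold. Nuclear genes of the respiratory chain were at 1.29-fold, with 1 of 75 above 2-fold, and mitochondrial transcripts at 1.05-fold.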

How the data were processed

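Transcripts of single cells were measured in 6 T cell samples, 3 per genotype. The authors deposited raw counts of UMIs, whole and not normalized, as 1 matrix with 31053 genes and 23101 barcodes; the submitters' processing notes name Cell Ranger 3.0.2 and mm10, and any filter on cells is not given in the sources used here. Barcodes with under 200 genes (295) and cells with 10% or more mitochondrial UMIs (3278) were left out. Cells were thinned without replacement to 3000 UMIs (seed 1). A fold is the ratio of summed UMIs per 1000000 after 5 UMIs were added to each sum, and a gene was called past 2-fold, since 1 sample allows no test. The CD11c-selected cells were not analysed here, and the planned comparison of genotypes was not run. Doublets were not called and free RNA was not corrected.

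The rule, the members and the 37 gene lists (524 genes) were chosen with earlier results of these data known. Genes were named by a fixed rule: those of the cell choice, up to 6 highest and 3 lowest by fold per list, the 15 highest and 15 lowest among genes detected in 25% of the cells of a group, the study's T cell genes and those with a printed promoter. *Ccnd3*, *Ccne1*, *Ccne2*, *Cd8b1*, *Cdkn1b*, *Fbl*, *H2afx*, *Ifng*, *Kdm5b*, *Lig1*, *Tcp11l2*, *Tox* and *Tubb5* were named after their values were seen. On counts simulated at the depths of the 2 groups, the steps recovered 200 of 200 genes changed by more than 2-fold. They put 0 of 5443 unchanged genes past 2-fold. The simulated cells of a group shared 1 profile, without variation between cells or a link of depth to composition. The result therefore covers the arithmetic of the steps and not the dependence on depth seen in the data. Python 3.11.15, numpy 2.4.6, scipy 1.17.1, pandas 2.3.3 and matplotlib 3.10.9 were used. Alternatives covered filters, thinning depth, order of thinning and rule, pseudocount, detection filter, comparison cells, totals, cells of other types and barcode runs. Some genes that the naming rule picks are not reported here.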

Additional observations from a re-analysis of the deposited data

Results flagged for a closer look

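Among 20 sets of values of the 6 barcode runs, in 2 a single run stood far from the others by Dixon's criterion, where chance marks about 1 set in 20. The fold of the summed activation and costimulation list, cycling over comparison cells, was 1.06 in 1 run and 0.873 to 0.931 in the other runs. The fold of the tissue residency list was 0.973 in 1 run and 0.760 to 0.828 in the others.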

How the results depend on the processing

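No paired analysis was possible because the matrix does not tie cells to samples, although the labels give both genotypes the same replicate numbers. The number of cycling cells was 707 with under 5% mitochondrial UMIs. Their share at equal depth was 3.18% and 11.4% with thinning to 2000 and 5000 UMIs. Cells shallower than each depth were left out, so these shares also cover different cells. The share was 8.46% with the rule applied before thinning. It was 4.32% to 5.37% when each barcode run was left out, lowest without run 6 and highest without run 1. The S and G2M folds were 3.05 and 5.26 at 2000 UMIs, 3.42 and 5.85 at 5000 UMIs, 3.20 and 6.19 with the rule applied to thinned counts, 3.23 and 5.56 without thinning, and 2.97 to 3.25 and 5.20 to 5.54 without each run. Genes more than 2-fold lower numbered 28 at 5000 UMIs, 54 without thinning, 38 with detection in 1% of cells, and 13 to 19 without each run. Genes more than 2-fold higher numbered 924 and 308 with detection in 1% and 10% of cells and 498 to 523 without each run.

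The next choices were added after the data had been seen. The S and G2M folds were 3.54 and 6.40 with at least 2 UMIs of *Mki67* and *Top2a*, 3.42 and 5.80 against deep comparison cells, 3.30 and 5.61 with cells of other types also left out, and 2.88 and 4.90 with ribosomal protein genes out of the totals. Under the same choices genes more than 2-fold lower numbered 43, 86, 24 and 25, and 8 without the deepest 5% of cells. *Ccl5* went to a log2 difference of 0.017 against deep comparison cells. Among the 64 genes and 18 lists followed over the alternatives, it was the only called value to change sign. The cause was not tested. The number of lists at least 2-fold higher was 13 of 28 under each alternative run on lists. With 1 sample, differences between animals and genotypes were not measured.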
